A study of Mus musculus with 248 samples.

Results

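Cluster C is 1 of 5 groups, A to E, into which the authors grouped single mouse hematopoietic stem cells (HSCs) by their RNA. Its members here are the 830 genes that the authors' deposited table of cluster genes lists as higher in cluster C than in all other cells. That table has 3336 rows in all, for 2887 distinct genes, with 854 rows for cluster A, 674 for B, 524 for D and 454 for E. The cells came from C57Bl6 mice and were sorted as Lin-Sca1+cKit+CD150+CD48- cells, a phenotypic HSC gate, with low or high mitochondrial membrane potential (MMP). They comprised 122 MMP-low and 126 MMP-high cells, captured on a Fluidigm C1 chip and read as full-length SMART-Seq v4 cDNA libraries with 100 nt single-end reads. No allele, transgene or treatment was named for either group, and the labels give no age or number of mice and do not say whether mice were pooled. Each MMP group and each cluster was therefore taken as 1 sample, and no p-value below measures the spread between animals.

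HSCs are rare bone marrow cells that renew themselves and give rise to all blood lineages. The electrical potential across the inner mitochondrial membrane drives ATP synthesis, and a low potential is known to mark quiescent HSCs while a high potential marks HSCs closer to division. The submitters set out to compare the cells of these MMP groups at single-cell resolution. Genes enter a cluster's list through a comparison of the same cells that formed the cluster, so the values that chose the 830 genes are given here as a description. Measures that the list did not use are the genes' rows in the authors' MMP table, the pathway table and promoter sequence, but all except the last rest on the same cells. The term table was computed from the list itself. The genes' rows for other clusters are not separate either, since cluster C cells are part of the rest in each of those comparisons.

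Sequencing depth was read from the deposited quality table. MMP-low libraries had 678723 to 5074155 reads each (median 1620811), and MMP-high libraries had 949570 to 4308287 (median 1816108). Genes detected per library had a median of 2316.5 in MMP-low (range 514 to 3674) and 3795.5 in MMP-high (range 1130 to 5200). The part of this difference in the MMP percentages given below was not tested. The submitters state that 224 cells with more than 5500 genes were kept, a bound above each library's value in that quality table, and no source used here says how the counts relate. The sources used here do not say what counts as detection in the tables of percentages. No file assigns a library to a cluster or states the number of cells in cluster C, and the MMP group, chip and depth of those cells are not given, so cluster C cannot be told apart from a set of libraries that differ in depth.

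The authors' deposited table gives a log fold change (log base not stated, smallest 0.25), the percentage of cells with the gene detected in cluster C and in all other cells, and a p-value multiplied by 16203, the number of genes. Of these 16203 genes, 5.12% were listed for cluster C. An adjusted p under 0.05 was given for 498 of the 830, or 3.07% of all 16203 genes. Because the rule used this contrast, nothing is read from these shares. The other 332 genes carried an unadjusted p that passed the authors' limit (0.00997 was the largest) but not the adjustment. Among the 830 were 52 predicted genes, named by a Gm number, a Rik name or a pseudogene suffix.

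The 6 genes given as markers of the cluster all had a row for cluster C and none for another cluster, and none had a row in the MMP table. Tbc1d20, a GTPase-activating protein for the Rab1 family (chromosome 2, 152293828 to 152313996 in mm10), had the largest log fold change per the authors' deposited table. It was detected in 98.5% of cluster C cells against 64.7% of other cells (log fold change 0.998, adjusted p = 2.65e-21), per the authors' deposited table. Ddx60, a helicase that takes part in antiviral RNA sensing (chromosome 8, 61928087 to 62038244), was detected in 100% against 46.8% (log fold change 0.99, adjusted p = 3.56e-25 per the authors' deposited table). Trim34a, an interferon-induced tripartite motif protein (chromosome 7, 104244457 to 104262234), was at 98.5% in cluster C and 12.8% elsewhere per the authors' deposited table (log fold change 0.89, adjusted p = 7.60e-36). These 3 genes thus combined near-complete detection in cluster C with very different detection elsewhere.

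Nsun4, which acts in the assembly of the mitochondrial ribosome (chromosome 4, 116032842 to 116053876), was at 98.5% in cluster C and 56.4% in other cells per the authors' deposited table, with a log fold change of 0.86. Gaa, the lysosomal enzyme that breaks down glycogen (chromosome 11, 119267887 to 119285454), was at 98.5% and 50.6% per the authors' deposited table, also with a log fold change of 0.86. Elane, the neutrophil elastase gene (chromosome 10, 79886247 to 79888215), was the marker of smallest log fold change, 0.30. By detection it stood at 82.4% of cluster C cells and 0% of other cells per the authors' deposited table (adjusted p = 8.38e-37). No upper limit is given for that 0%, as the files state percentages and not the counts of cells behind them.

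**Figure D1:**
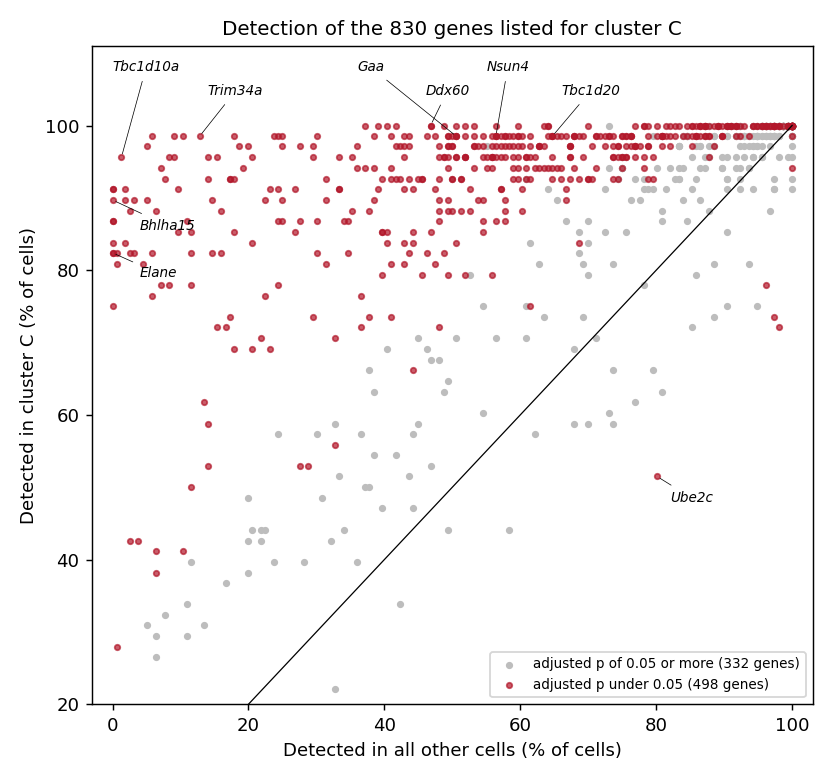
Each point is 1 of the 830 genes, by its detection in all other cells (x axis, % of cells) and in cluster C (y axis, % of cells, starting at 20), with the line of equal detection. Elane and Bhlha15 sit at 0% of other cells, Tbc1d20 and Nsun4 lie near the middle of the x axis, and Ube2c lies below the line.

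After the markers, the largest log fold changes belonged to genes of varied function. The authors' deposited table gave 0.84 for Smpd4, a neutral sphingomyelinase, and 0.83 for Limk2, a kinase that phosphorylates cofilin. Limk2 was detected in 100% of cluster C cells and 50.6% of other cells per the authors' deposited table. Sdha, the catalytic subunit of succinate dehydrogenase, followed at 0.83 and was detected in 100% of cells on both sides per the authors' deposited table. Cat, the catalase gene that removes hydrogen peroxide, was at 100% and 95.5%, with a log fold change of 0.79 per the authors' deposited table. For these last genes the fold change came with little or no difference in detection.

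Inpp5k, a phosphoinositide phosphatase, had a log fold change of 0.81 and Eppk1, the cytoskeletal linker epiplakin, had 0.79 per the authors' deposited table. Detection set them apart per the authors' deposited table, at 100% against 91% for Inpp5k and 97.1% against 18.6% for Eppk1. Klhl6, a substrate adaptor of a ubiquitin ligase known from B cells, and Cpxm1, a member of the carboxypeptidase family, had log fold changes of 0.79 and 0.78 per the authors' deposited table. FAM105A, printed as the files list it, had a log fold change of 0.76 and detection of 98.5% against 5.8% per the authors' deposited table.

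The list held a set of genes almost absent from the other cells. The authors' deposited table held 23 cluster C genes detected in at most 5% of other cells, 9 of them in 0%, against 1 such gene for cluster A and 0 for B, D and E. All 23 had an adjusted p under 0.05, and their detection in cluster C ran from 27.9% to 95.6% per the authors' deposited table. Of the 23, 16 were not predicted genes, and 0 of the 23 had a row in the MMP table. Since these genes were picked by the same values, this is a description of the list.

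Tbc1d10a, a Rab GTPase-activating protein, had the widest gap per the authors' deposited table, at 95.6% of cluster C cells and 1.3% of other cells. Morn4, which binds an unconventional myosin, and Pdzd3, a PDZ-domain protein, were each at 91.2% in cluster C and 0% elsewhere per the authors' deposited table. Bhlha15 (Mist1), a transcription factor of secretory cells, was at 89.7% and 0%, and Uprt, a homologue of uracil phosphoribosyltransferases, at 91.2% and 1.9% per the authors' deposited table. Just above the 5% bound were Agmo, the alkylglycerol monooxygenase that cleaves ether lipids, with 97.1% and 5.1%, and Dync1i1, a dynein intermediate chain, with 98.5% and 9.0% per the authors' deposited table. Amotl2, an angiomotin family member, had 98.5% and 10.3% per the authors' deposited table. The 8 genes named here lie on several chromosomes, and none of the 8 had a row for another cluster.

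Other genes of the list showed the opposite. Detection was 100% in both cluster C and all other cells for 72 of the 830 genes per the authors' deposited table, against 65 for cluster A, 7 for B, 15 for D and 17 for E. It was lower in cluster C than in other cells for 45 genes, against 11 for cluster A, 3 for B, and 0 for D and E, per the authors' deposited tables. An adjusted p under 0.05 was given for only 26 of the 72 genes and 6 of the 45. Ube2c, the ubiquitin-conjugating enzyme of the anaphase-promoting complex, had the most negative gap per the authors' deposited table, at 51.5% of cluster C cells and 80.1% of other cells, with a log fold change of 0.31. Birc5 (survivin), chosen after its values were seen, was at 72.1% and 98.1% with a log fold change of 0.26 per the authors' deposited table. Ube2c and Birc5 were among the 6, and were listed as higher in cluster C on average while fewer of its cells held them.

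Over all 830 genes, the median gap in detection was 18.2 percentage points (interquartile range 2.9 to 39.5) per the authors' deposited table. The medians for the other clusters were 24.6 points for A, 32.15 for B, 39.6 for D and 32.05 for E, by the same table. Cluster C thus had the smallest median, together with the widest gap of any gene (94.3 points) and the most negative (-28.6 points). Its median log fold change was 0.35, against 0.33 for A, 0.40 for B, 0.31 for D and 0.30 for E per the authors' deposited table. Its largest log fold change of 0.998 was below the largest for A (1.35) and B (2.09) and above those for D (0.67) and E (0.70) per the authors' deposited table.

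**Figure D2:**
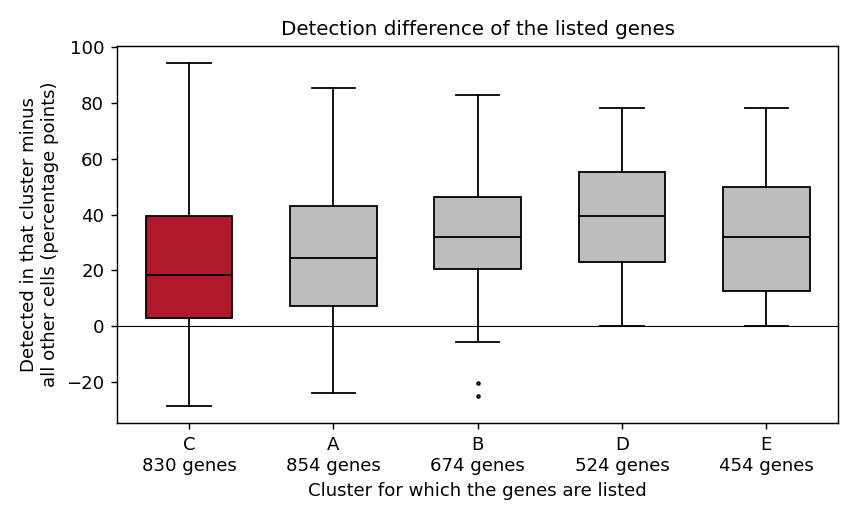
Boxes show the detection difference (cluster minus all other cells, percentage points) of the genes listed for each cluster, with the median, the quartiles, whiskers to the farthest gene within 1.5 interquartile ranges, and points beyond. Cluster C has the lowest median, 18.2 points, and the longest span of whiskers.

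At the lower bound of the list, the 3 genes of smallest log fold change were Xaf1, an interferon-inducible antagonist of XIAP, Slc12a7, a potassium-chloride cotransporter, and Prdx4, a peroxiredoxin of the endoplasmic reticulum. All 3 stood at 0.25 per the authors' deposited table, just inside the limit. Slc12a7 still went with detection of 73.5% of cluster C cells and 17.3% of other cells per the authors' deposited table. Values just outside the limit are not in the files used here.

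By number of members listed for cluster C, genes of the interferon response came first among the gene lists examined. Interferons bind cell surface receptors and act through the transcription factor ISGF3, of which IRF9 is a subunit, to switch on antiviral genes that carry an interferon-stimulated response element. In HSCs, interferon signalling is known to drive cells out of quiescence. Of 82 genes of the interferon list, 17 were listed for cluster C (20.7%), 8 of them with an adjusted p under 0.05 (9.76%). These shares stand beside 5.12% and 3.07% of all genes, but the rule used this contrast. By the share with an adjusted p under 0.05, the lists of immediate early or handling stress genes (10.5%) and of G1/S and DNA replication (10.4%) lay above it. The same list had 12 members listed for cluster A, 5 for B, 3 for D and 0 for E. The median log fold change of the 17 was 0.44, beside 0.35 for all 830 genes per the authors' deposited table.

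Among sensors and effectors, Ddx60 and Trim34a led, as given above. Gbp3 and Eif2ak2 were chosen after their values were seen. Gbp3, an interferon-induced guanylate-binding protein, was at 100% of cluster C cells and 63.5% of other cells (log fold change 0.55) per the authors' deposited table. Eif2ak2 (PKR), the kinase that stops translation on sensing double-stranded RNA, was at 97.1% and 67.3% (log fold change 0.47) per the authors' deposited table. Of the transcription factors, Irf7 was at 98.5% and 80.8%, with a log fold change of 0.65 per the authors' deposited table. Irf9 was at 100% on both sides, with a log fold change of 0.58 and an adjusted p of 9.08e-05 per the authors' deposited table. Oasl2, Trim30a, Samd9l, Rtp4, Nlrc5, Iigp1, Ddx58, Tor3a and Xaf1 were listed with an adjusted p of 0.05 or more.

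Trim34b was at 95.6% of cluster C cells and 8.3% of other cells (log fold change 0.54, adjusted p = 1.25e-34) per the authors' deposited table. Its annotated transcript matched that of Trim34a at 1803 of 1827 aligned bases (98.7% identity), so reads of this pair may have been split or shared, and their values are uncertain. Of the 17 interferon genes, 4 had a row in the MMP table, all higher in MMP-low, and 0 were higher in MMP-high. Oasl2, a 2'-5' oligoadenylate synthetase-like gene, was at 100% of MMP-low cells, against 86.6% of MMP-high cells, per the authors' deposited table. Iigp1, an interferon-inducible GTPase, was the 1 gene listed for clusters C, A and B together. Iigp1 was at 100% of the cells of each of these clusters, against 73.1% of cells outside C, 76.5% outside A and 78.6% outside B per the authors' deposited table.

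The promoters of the interferon genes are shown because these genes share a known control element. Promoter windows of 250 bases before and 50 after the gene start were taken from RefSeq (GRCm38.p6, the same assembly as mm10), and 643 of the 830 cluster C genes had one. The interferon-stimulated response element was searched as GAAA, any 2 bases and GAAAC, on both strands. It was found in 255 of 27025 genes with a window (0.944%) and in 12 of the 643 cluster C genes (1.87%). Shares for the other clusters were 14 of 643 for A (2.18%), 7 of 524 for B (1.34%), 6 of 415 for D (1.45%) and 2 of 353 for E (0.567%). Of the 17 interferon genes, 13 had a window, and 6 of those held the element (46.2%), namely Ddx58, Ddx60, Eif2ak2, Gbp3, Trim30a and Trim34a. Since the list was compiled from genes known to respond to interferon, this share says nothing particular of cluster C.

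Windows of 4 genes with the element and of Trim34b, which had no match, are printed 5' to 3' on the gene's strand, with the matches in capitals. They lie at chr8:61927837-61928136 for Ddx60, chr7:104244207-104244506 for Trim34a and chr3:142559794-142560093 for Gbp3, all on the plus strand. Eif2ak2 lies at chr17:78882523-78882822 on the minus strand and Trim34b at chr7:104329221-104329520 on the plus strand.
Ddx60: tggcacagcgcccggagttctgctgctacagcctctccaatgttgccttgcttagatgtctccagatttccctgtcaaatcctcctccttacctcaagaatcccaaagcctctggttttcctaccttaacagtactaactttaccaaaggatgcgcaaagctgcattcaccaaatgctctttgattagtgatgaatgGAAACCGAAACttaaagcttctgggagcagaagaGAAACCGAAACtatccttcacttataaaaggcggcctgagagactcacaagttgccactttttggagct
Trim34a: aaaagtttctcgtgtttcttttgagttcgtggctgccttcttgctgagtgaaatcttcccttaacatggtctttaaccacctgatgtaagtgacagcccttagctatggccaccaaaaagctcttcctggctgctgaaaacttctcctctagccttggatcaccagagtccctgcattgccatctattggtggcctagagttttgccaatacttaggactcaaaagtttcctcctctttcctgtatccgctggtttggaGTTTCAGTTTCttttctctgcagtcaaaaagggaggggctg
Gbp3: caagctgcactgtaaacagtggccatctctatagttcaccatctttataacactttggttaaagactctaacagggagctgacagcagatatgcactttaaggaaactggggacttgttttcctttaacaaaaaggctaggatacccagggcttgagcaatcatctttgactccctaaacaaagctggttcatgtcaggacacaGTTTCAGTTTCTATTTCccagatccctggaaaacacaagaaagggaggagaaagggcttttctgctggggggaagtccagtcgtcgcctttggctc
Eif2ak2: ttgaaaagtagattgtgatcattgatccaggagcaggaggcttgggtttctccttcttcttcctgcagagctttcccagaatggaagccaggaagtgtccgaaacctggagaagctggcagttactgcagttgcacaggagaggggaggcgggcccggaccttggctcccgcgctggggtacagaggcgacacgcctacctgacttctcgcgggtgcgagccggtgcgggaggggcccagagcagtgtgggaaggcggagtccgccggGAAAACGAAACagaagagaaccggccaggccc
Trim34b: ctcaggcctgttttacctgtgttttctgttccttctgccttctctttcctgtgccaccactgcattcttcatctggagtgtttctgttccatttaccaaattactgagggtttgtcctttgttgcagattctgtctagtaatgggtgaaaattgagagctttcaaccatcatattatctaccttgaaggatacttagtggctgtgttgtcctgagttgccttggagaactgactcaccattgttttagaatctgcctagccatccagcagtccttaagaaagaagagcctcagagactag
Ddx60 held 2 separate matches, the first 53 bases before the gene start. Gbp3 held 2 overlapping matches, the first 46 bases before the start, on the reverse strand. The match in Trim34a began 9 bases after the start and that in Eif2ak2 18 bases after it. For Trim34b the letters were not in this window. A match is a run of letters and not a known binding site.

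Genes of vesicle traffic, lysosomes and autophagy appeared next. Rab GTPases direct vesicles between compartments, and TBC-domain proteins switch them off. In this section shares stand beside 5.12% of all genes listed and 3.07% with an adjusted p under 0.05, but the rule used this contrast. Of 66 genes of the TBC and Rab list, 3 were listed for A, 2 for B, 4 for D and 3 for E. For cluster C it was 8 genes (12.1%), 6 of them with an adjusted p under 0.05 (9.09%). Besides Tbc1d20 and Tbc1d10a, they included Rab14, a GTPase of endosomal recycling, at 100% and 99.4% with an adjusted p of 1 per the authors' deposited table. Also listed were Rab6a, Rab27a, Rab28 and Tbc1d5, and of these 4 only Tbc1d5 had an adjusted p of 0.05 or more.

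Of 53 lysosomal hydrolases and membrane proteins, 3 were listed for cluster C (5.66%), all with an adjusted p under 0.05, beside 5.12% and 3.07% of all genes. The same list had 15 members listed for A, 11 for B, 3 for D and 5 for E. The 3 for cluster C were Gaa, described above, Lamp2 and Cln3. Lamp2, a lysosomal membrane protein needed for fusion with autophagosomes, was at 100% and 97.4% (log fold change 0.42) per the authors' deposited table. Cln3, a lysosomal membrane protein mutated in a juvenile neuronal storage disease, was at 94.1% and 64.1% (log fold change 0.38) per the authors' deposited table, and was also listed for cluster E. Of 17 vacuolar ATPase subunits, which acidify the lysosome, 0 were listed for cluster C, beside 6 for A and 2 for B. On these lists cluster C therefore held fewer genes in number than the clusters A and B, a difference that was not tested. The authors' wider lysosome term counted 14 of 170 genes for cluster C, 9 of them with an adjusted p under 0.05. The term itself had an adjusted p of 0.235 per the authors' deposited table.

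Of 48 autophagy and mitophagy genes, 3 were listed for cluster C (6.25%), all with an adjusted p under 0.05, beside 5.12% and 3.07% of all genes. The same list had 6 members listed for A and 3 each for B, D and E. Atg16l1, which places the LC3 conjugation machinery on the forming autophagosome, was at 100% of cluster C cells and 40.4% of other cells (log fold change 0.71, adjusted p = 2.72e-23) per the authors' deposited table. Calcoco1, an autophagy receptor, was at 97.1% and 53.2% (log fold change 0.54) per the authors' deposited table. Wipi2, which recruits Atg16l1 to the membrane, was at 94.1% and 64.7% (log fold change 0.33) per the authors' deposited table. Its row in the MMP table gave 52.4% of MMP-low cells, against 92.4% of MMP-high cells, by the authors' deposited table.

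Of the mitochondrial lists, 1.3% of respiratory chain and ATP synthase genes and 4.67% of mitochondrial translation and import genes were listed for cluster C, beside 5.12% of all genes. Of the 77 respiratory chain or ATP synthase genes on that list only Sdha was listed for cluster C, beside 1 for A, 0 for B, 5 for D and 3 for E. The respiratory chain gene mt-Nd5, not on that list and chosen after its values were seen, was also listed for cluster C. It had a log fold change of 0.51 and detection of 100% on both sides per the authors' deposited table, without an adjusted p under 0.05. Of the genes of mitochondrial translation and import, 5 were listed for A, 4 for B, 6 for D and 5 for E. For cluster C it was 5 genes, 3 of them with an adjusted p under 0.05. Timm50, a receptor of the inner membrane translocase, led these with a log fold change of 0.40 and an adjusted p of 1 per the authors' deposited table. Mrps17, from the mitochondrial small ribosomal subunit, was at 94.1% of cluster C cells and 100% of other cells per the authors' deposited table. Of 77 genes of RNA methylation and tRNA modification, 4 were listed (5.19%), 3 with an adjusted p under 0.05, beside 8 listed for A, 7 for B, 5 for D and 3 for E. Alkbh8, which completes wobble uridine modification of tRNA, followed Nsun4, with 98.5% and 43.6% and a log fold change of 0.71 per the authors' deposited table. Of 23 glycolytic genes only Pgk1 was listed, with an adjusted p of 1.

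Cell cycle genes were present on both sides of the detection line. Of 67 genes of G1/S and DNA replication, 9 were listed for cluster C (13.4%), 7 of them with an adjusted p under 0.05 (10.4%). These shares stand beside 5.12% and 3.07% of all genes, in a contrast that the rule used. The same list had 4 members listed for A, 0 for B, 13 for D and 11 for E. Rrm2, the small subunit of ribonucleotide reductase that supplies deoxynucleotides, was at 98.5% of cluster C cells and 38.5% of other cells (log fold change 0.55, adjusted p = 1.29e-21) per the authors' deposited table. Uhrf1, which keeps DNA methylation in place at replication forks, was at 95.6% and 59% (log fold change 0.50) per the authors' deposited table. Mcm2, a subunit of the replicative helicase, was at 98.5% and 80.8% (log fold change 0.45), and Orc6, of the origin recognition complex, at 95.6% and 73.7% (log fold change 0.42) per the authors' deposited table. Mcm3, Mcm4, Mcm7, Lig1 and Tyms were the other 5. Of the 9, the MMP table had a row for 7, all toward MMP-high, as were all 27 genes of this list with a row there. Toward MMP-high were also 14.6% of the 830 genes and 5.67% of all genes.

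Of 77 genes of G2/M and mitosis, 7 were listed for cluster C (9.09%), 4 of them with an adjusted p under 0.05 (5.19%). These shares stand beside 5.12% and 3.07% of all genes, in a contrast that the rule used. The same list had 3 members listed for A, 1 for B, 10 for D and 3 for E. The condensin subunits Ncapg2 and Ncapd2, which compact chromosomes, had log fold changes of 0.36 and 0.35 per the authors' deposited table. Ncapd2 was at 95.6% of cluster C cells and 56.4% of other cells, and at 34.3% of MMP-low against 98.3% of MMP-high cells, per the authors' deposited tables. Cdk1, the kinase that starts mitosis, was at 73.5% and 69.2% with an adjusted p of 1 per the authors' deposited table. Ube2c and Birc5, with adjusted p of 0.0123 and 0.000477 per the authors' deposited table, were the 2 genes with fewer positive cells in cluster C described above. The list's members therefore did not share a direction in detection.

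The lists of stem cell genes and of blood lineage markers had 0% to 10% of their members listed for cluster C, beside 5.12% of all genes, and nothing is read from these shares because the rule used this contrast. Of 10 long-term HSC markers (among them Slamf1, Procr, Mecom, Hlf and Fgd5), 0 were listed for cluster C, while 5 were listed for cluster A, 1 for B and 0 for D and E. A gene without a row is not shown to be absent, since a row needs higher expression in that cluster. Of the wider stem cell and quiescence list, 4 of 53 were listed for cluster C, 2 with an adjusted p under 0.05, beside 14 listed for A. Erg, a transcription factor needed for HSC maintenance, was at 88.2% and 49.4% (log fold change 0.35) per the authors' deposited table. Egr1, an immediate early factor that keeps HSCs in the niche, was at 100% on both sides per the authors' deposited table, with log fold changes of 0.44 in cluster C and 0.50 in cluster A. Of 38 immediate early or handling stress genes, cluster C held 5 (13.2%), namely Klf6, Fosl2, Klf4, Egr1 and Jun, beside 14 for cluster A. An adjusted p under 0.05 was given for 4 of the 5 (10.5% of the list), beside 3.07% of all genes.

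Of 31 granulocyte, monocyte and macrophage markers, 2 were listed for cluster C, both with an adjusted p under 0.05, beside 7 for A, 12 for B, 1 for D and 0 for E. They were Elane and Chil3, a chitinase-like protein of neutrophil precursors and macrophages. Chil3 was at 100% of cluster C cells and 46.8% of other cells (log fold change 0.46), and it was also listed for cluster A (100% and 53.6%, log fold change 0.80), per the authors' deposited table. In the MMP table it was at 100% of MMP-low against 30.3% of MMP-high cells, by the authors' deposited values. Elane, Mpo, Prtn3 and Ctsg are the primary granule genes that granulocyte precursors express together. Of these, Mpo, Prtn3 and Ctsg had no row for any cluster. Prtn3 was at 99% of MMP-low cells against 100% of MMP-high cells per the authors' deposited table, so its detection was near complete in all cells where Elane was at 0% outside cluster C. Of the 13 markers fixed for granulocytes, monocytes and macrophages, only Elane had a row for cluster C, and the part of such cells in this result was not tested.

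Of 30 lymphoid markers, 3 were listed (10%), 2 with an adjusted p under 0.05, beside 1 listed for A, 5 for B and 0 for D and E. Cd4, the T helper cell coreceptor, was at 85.3% of cluster C cells and 11.5% of other cells (log fold change 0.28) per the authors' deposited table. Nkg7, a granule protein of cytotoxic lymphocytes, was at 97.1% and 63.5%, and at 44.8% of MMP-low against 99.2% of MMP-high cells, per the authors' deposited tables. Lck, the kinase bound to Cd4 in T cells, was at 26.5% and 6.4% with an adjusted p of 0.337 per the authors' deposited table. No member of the erythroid (0 of 19), platelet lineage (0 of 15), multipotent progenitor (0 of 13), mast cell, eosinophil and basophil (0 of 16) or endothelial and stromal (0 of 17) lists was listed for cluster C.

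The remaining lists had between 1 and 9 members in cluster C. Their shares stand beside 5.12% of all genes listed and 3.07% with an adjusted p under 0.05, and nothing is read from them because the rule used this contrast. For splicing factors and RNA helicases it was 9 (7.44% of the list), 1 of them with an adjusted p under 0.05 (0.826%). That gene was Rbm5, an alternative splicing regulator (log fold change 0.62 per the authors' deposited table). For chromatin modifiers it was 8 (7.69%), with 2 past the adjustment (1.92%), Kdm7a and Asxl1. For proteasome and ubiquitin ligases it was 7 (5.98%) with 4 past it (3.42%), and for DNA damage response and repair 6 (5.94%) with 5 past it (4.95%). Fancl, the ubiquitin ligase of the Fanconi anaemia core complex, was at 98.5% and 75% per the authors' deposited table. For cholesterol and fatty acid metabolism it was 5 of 52 (9.62%) with 2 past it (3.85%), and for antigen presentation 4 of 24 (16.7%) with 2 past it (8.33%). In all, 110 of the 830 genes belonged to at least 1 of the 27 lists, 64 of them with an adjusted p under 0.05.

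**Figure D3:**
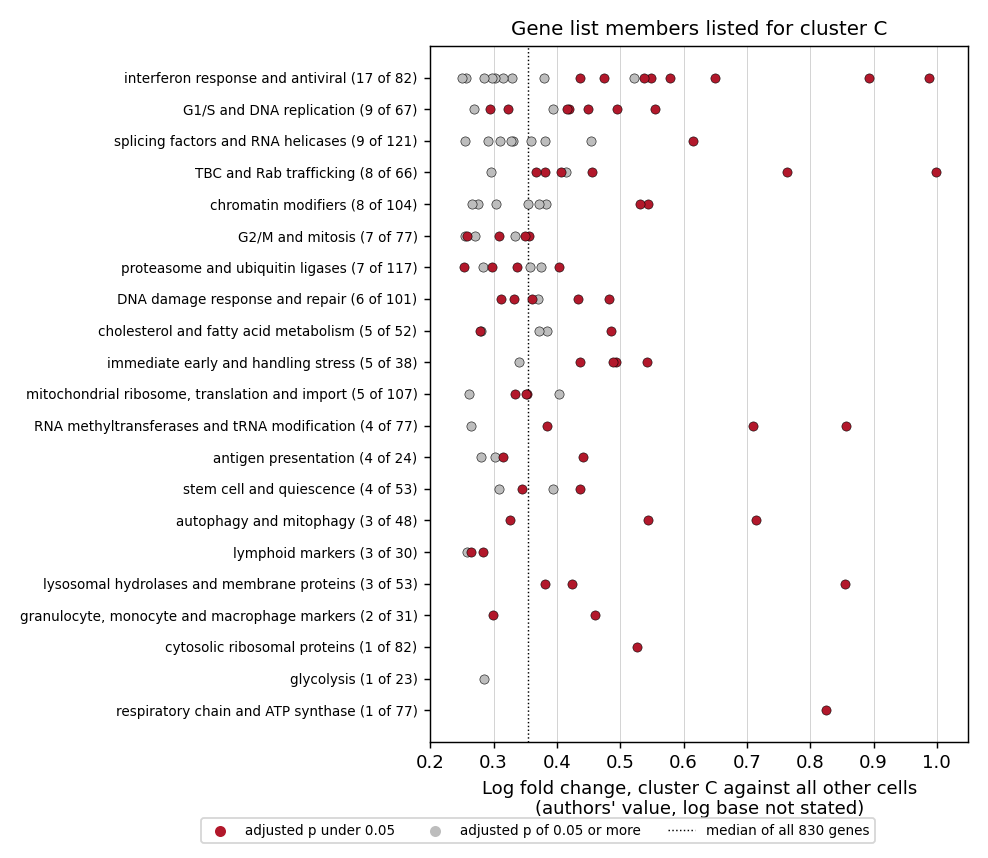
Each point is a gene of the list on the left that is listed for cluster C, at its log fold change in cluster C against all other cells (x axis, log base not stated), red with an adjusted p under 0.05 and grey otherwise, with the number of listed members of each list. The interferon list has the most members, 17 of 82, and Ddx60 and Tbc1d20 lie farthest to the right.

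Most cluster C genes were found in no other cluster's list. Only cluster C was named for 778 of the 830 (93.7%), whereas this share was 63.3% for A, 58.9% for B, 76.3% for D and 71.4% for E. The remaining 52 had a row for another cluster. Of these, 40 were shared with A (4.82% of the C list and 4.68% of the A list), 9 with E (1.08% and 1.98%), 2 with D (0.241% and 0.382%) and 2 with B (0.241% and 0.297%), Iigp1 counting for both A and B. The shares of the A, E, D and B lists stand beside 5.12% of all genes listed for cluster C. The share of A is near this value, and those of E, D and B are below it. All 5 comparisons share cells, since each cluster is part of the rest for every other, so nothing is read from the overlaps. Pmm2, phosphomannomutase of protein glycosylation, was shared with E. It was at 98.5% of cluster C cells against 57.7%, and at 100% of cluster E cells against 65.1%, per the authors' deposited table, with log fold changes of 0.70 and 0.30. Dctd and Tyms, enzymes of thymidylate synthesis, were the 2 genes shared with D.

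The MMP table sets MMP-low against MMP-high cells, and of the 16203 genes it lists 5.86% toward MMP-low, meaning higher in those cells, and 5.67% toward MMP-high. Of the 830 cluster C genes, 60 (7.23%) were toward MMP-low, a larger set of 14.6% toward MMP-high, and 649 (78.2%) had no row. The first share is near that of all genes, and the second is above it. Libraries of the MMP-high group also had more genes detected (median 3795.5, against 2316.5 in MMP-low), and the part of this in the shares was not tested. With an adjusted p under 0.05 in the MMP table the counts were 33 toward MMP-low and 83 toward MMP-high, beside 3.33% and 3.69% of all genes. With it in both tables, 7 genes were left toward MMP-low and 61 toward MMP-high. The other clusters lay to 1 side, with 65.1% of A and 60.4% of B genes toward MMP-low and 0 of either toward MMP-high. For D and E, 53.2% and 49.1% were toward MMP-high, with 0 and 1 genes toward MMP-low. Cluster C was thus the only cluster with more than 1 gene on each side. No file used here gives the MMP group of a cluster C cell, so the label of mixed potential could be set only beside these counts.

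**Figure D4:**
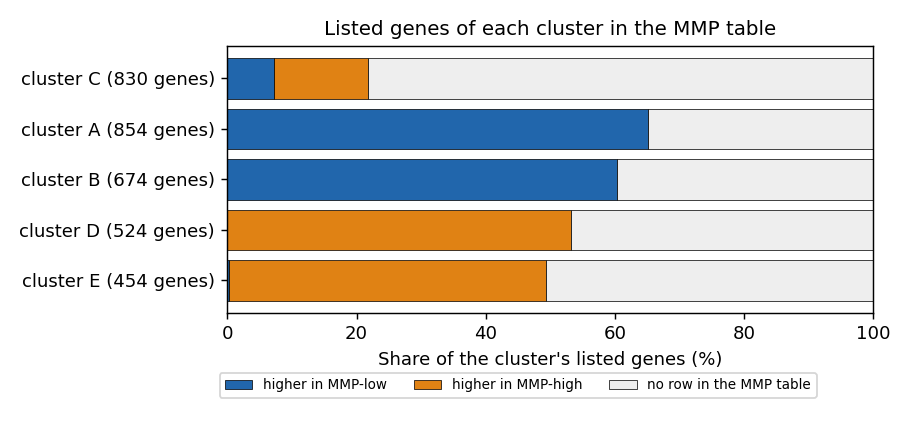
Bars show the share (%) of each cluster's listed genes that the MMP table puts toward MMP-low (blue), toward MMP-high (orange) or not at all (light grey). In cluster C 7.23% are blue and 14.6% orange, and clusters A and B show no orange.

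Which genes each side could share with other clusters was nearly fixed by the lists of those clusters. Clusters A and B had 0 genes toward MMP-high, and D and E had 0 and 1 toward MMP-low. The split is therefore given as a description, and nothing is read from it. Of the 60 genes toward MMP-low, 33 were also listed for A or B and 0 for D or E. Of those toward MMP-high, 8 were also listed for D or E and 0 for A or B. Toward MMP-low the largest fold in the MMP table among genes other than the predicted ones was that of Chil3, with 1.49 per the authors' deposited table. Cenpj, a centriole assembly protein, and Kiz (kizuna), a centrosomal protein, were chosen after their values were seen. Cenpj was at 100% of cluster C cells and 41.7% of other cells, and at 87.6% of MMP-low against 34.5% of MMP-high cells, per the authors' deposited tables. Kiz was at 100% and 51.9% for the cluster, and at 97.1% of MMP-low against 39.5% of MMP-high cells, per the authors' deposited tables.

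Toward MMP-high, the largest folds in the MMP table were those of ERDR1 (as listed), Xist, Dctd, Gm21887, Tyms and Gna15, with values of 0.57 to 0.77 per the authors' deposited table. Gna15, a G protein alpha subunit of blood cells, was at 98.5% of cluster C cells and 59% of other cells per the authors' deposited table. It was at 38.1% of MMP-low cells, against 100% of MMP-high cells, per the authors' deposited table. Uhrf1 had a like pattern, with 38.1% of MMP-low against 98.3% of MMP-high cells per the authors' deposited table. Tyms was at 98.5% of cluster C and 84.6% of other cells, and at 76.2% of MMP-low against 100% of MMP-high cells, per the authors' deposited tables. The other 649 genes, the 6 markers among them, had no row on either side.

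The share of genes that the authors had called highly variable over all cells was smallest for cluster C. It was 44.1% (366 of 830), against 63.1% for A, 80.6% for B, 52.7% for D and 50.2% for E, and the highly variable list holds 5624 genes, or 34.7% of 16203. Of the 23 genes almost absent elsewhere, 17 were on it. Both lists come from the same cells.

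The authors' deposited term table for cluster C holds 64 terms, and each of the 395 genes it names is among the 830. An adjusted p under 0.05 was given for 25 terms, of 64, and under 0.01 for 0, the smallest being 0.0162. For the other clusters 54 of 65 terms (A), 9 of 60 (B), 11 of 63 (D) and 36 of 54 (E) were under 0.05. The smallest adjusted p was 7.9e-06 for A, 1.9e-06 for B, 4.58e-08 for D and 6.11e-05 for E per the authors' deposited tables, lower in each than for C.

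Of the 22 biological process terms for cluster C, 1 was under 0.05, the cellular response to DNA damage, with 21 of 179 genes (adjusted p = 0.0264 per the authors' deposited table). Of those 21, 18 had an adjusted p under 0.05 as genes, beside 60% of all 830 cluster C genes. Toward MMP-low were 0 of the 21 and toward MMP-high 8, beside 7.23% and 14.6% of the 830. Besides Alkbh8 and Mcm7, they included Chek2, a checkpoint kinase, chosen after its values were seen, at 52.9% and 28.8% per the authors' deposited table. The term also counted Irf7, Irf3, Lyn and Bcl2, which are better known from interferon signalling, receptor signalling and apoptosis. The term for negative regulation of type I interferon production had an adjusted p of 0.141 per the authors' deposited table. The term for regulation of that production had 0.245, and lysosome organization had 0.141, per the same table.

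Of 21 cellular component terms, 3 were under 0.05. Mitochondrion had 63 of 921 genes (adjusted p = 0.0162), the telomeric region of chromosomes 14 (0.0162) and late endosome 12 of 84 (0.0210) per the authors' deposited table. The mitochondrial genes were led by Sdha, Cat and Opa3. Of the 63, 1 was toward MMP-low and 15 toward MMP-high, beside 7.23% and 14.6% of the 830. Opa3, an outer and inner membrane protein of mitochondria mutated in optic atrophy, was chosen after its values were seen, and was at 100% and 53.2% (log fold change 0.72) per the authors' deposited table. Late endosome held Lamp2, Rab14, Cln3 and Rab27a, and it appeared in the term table of no other cluster, while mitochondrion appeared under 0.05 also for D and E. The telomeric term held Ctc1, of the CST complex that guards chromosome ends, along with Mcm2, Mcm3, Mcm4 and Mcm7, and was also under 0.05 for cluster E.

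All 21 molecular function terms for cluster C were under 0.05, but they were near-copies of each other. Each counted 74 to 77 genes out of terms of 1199 to 1230 genes, and 74 genes stood in all 21 of the terms, of 85 distinct genes. Their names split RNA binding by the type of RNA or site. Most of these terms, among them tRNA, mRNA and double-stranded RNA binding, were also under 0.05 for cluster E. Eppk1, Add1, Hnrnpul2 and Rbm5 led these 74 genes by log fold change, with 0.79, 0.75, 0.71 and 0.62 per the authors' deposited table.

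The authors' deposited pathway table compares the 5 clusters for 13 pathways by a Kruskal-Wallis test, a rank test, and by z statistics for each of the 10 pairs of clusters. The sources used here give neither the pathway score of a cell nor the direction of z, so sizes and order are given without saying which end is high. Each deposited pair p equalled 10 times the one-sided normal p of its z, at most 1, within 4.72e-05. Among the 52 pairs with cluster C, 30 carried an asterisk (largest p 0.0048) and 22 did not (smallest p 0.0397). Over all pairs of clusters the largest p with an asterisk was 0.0236 and the smallest without one 0.0116, so the mark followed no single limit of p. The table does not name the units that were ranked, and no p-value in it is known to count animals.

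The signs of z gave a single order of the 5 clusters in each of the 13 pathways, with B at 1 end throughout and C at place 2 from it in 8 pathways and place 3 in 5. Cluster C differed from E with an asterisk in 13 of 13 pathways (absolute z 3.3 to 7.97), from A in 7 (1.72 to 7.33), from B in 7 (0.82 to 4.96) and from D in 3 (0.086 to 4.45), per the authors' deposited table. Its median absolute z was 6.85 with E, 3.75 with A, 3.68 with B and 1.30 with D. Cluster D had the smallest absolute z of the 4 clusters in 8 pathways, B in 2, A in 3 and E in 0. The 3 pathways in which D carried an asterisk were macroautophagy, the electron transport chain and oxidative phosphorylation.

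In the electron transport chain, the absolute z of C was 7.10 with E, 4.45 with D, 2.60 with B and 1.72 with A, and in oxidative phosphorylation 7.38, 3.88, 2.24 and 1.82, per the authors' deposited table. For these respiratory pathways A and B carried no asterisk against C, while D and E did. The pair of C and B in the electron transport chain had a deposited p of 0.0461 for its z, without an asterisk. For the lysosome, 7.33 against A and 5.05 against E were marked, and 1.95 against D and 1.79 against B were not, per the authors' deposited table. Macroautophagy was marked against B (4.82), D (4.20) and E (3.98) but not A (2.26) per the authors' deposited table. Glycolysis, purine metabolism, the TCA cycle and mRNA processing were marked against B, A and E and not against D. These are descriptions of ranks, and a pair without an asterisk is not shown to be equal.

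**Figure D5:**
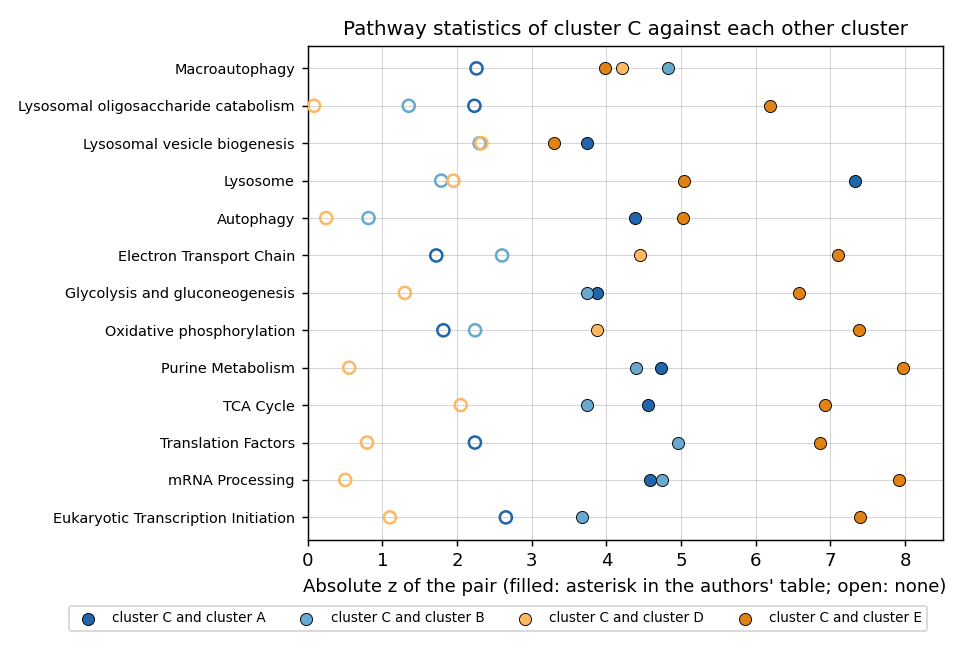
Each row is 1 of 13 pathways and each point the absolute z (x axis) of cluster C against cluster A, B, D or E per the authors' deposited table, filled where that table has an asterisk. Cluster E is filled in every row, and cluster D, in light orange, is filled in 3.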

How the data were processed

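Single-cell RNA-seq libraries were demultiplexed with bcl2fastq 2.17.1.14 and aligned with STAR 2.5.2b to mm10, per the submitters' processing notes. No expression per cell was used here, and the values are the authors' own result tables. Per the file headers, these give p-values and adjusted p-values, average log fold changes (a score, since the log base is not stated), percentages of cells with a gene detected, and term and pathway scores. The deposited quality table gives read and gene counts per library, in 122 MMP-low and 126 MMP-high libraries (254 multiplexed over 3 lanes). The sources used here name no method behind the authors' p-values. Adjusted p equals 16203 times p, at most 1.

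Rows for cluster C were selected, fractions turned into percentages and genes counted by list, MMP side and cluster with Python 3.11.15 and pandas 2.3.3. No new test was run, since each cluster and MMP group counts as 1 sample. Symbols, in capitals in the files, were matched to GENCODE M21 (823 of 830), and positions are in mm10. Promoters came from RefSeq GRCm38.p6, and Trim34a and Trim34b transcripts from GENCODE M21 were aligned locally with Biopython 1.88. The members and gene lists were chosen with earlier results of these data known. Genes named are the 6 given markers, the 15 largest log fold changes and 10 largest detection gaps (no predicted genes), up to 4 per list, the 3 smallest log fold changes, and up to 6 genes shared with another cluster or of largest fold on each side of the MMP table. A few genes under this rule are not reported here. Others are said to be chosen after their values were seen, or are named as members of a count or term. Alternatives were stricter thresholds, leaving out predicted genes and leaving out cell type markers. No columns of per-sample values outside these were used (0 left out).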

Additional observations from a re-analysis of the deposited data

How the results depend on the processing

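Requiring an adjusted p under 0.05 left 498 of the 830 cluster C genes, under 0.01 left 465, and a log fold change of at least 0.5 left 136. With an adjusted p under 0.05 the median detection difference was 34.6 points and the median log fold change 0.40, and without predicted genes the median difference was 18.35 points. Toward MMP-low, 33 genes remained with an adjusted p under 0.05 in the MMP table and 7 with it in both tables. Toward MMP-high, 61 remained with it in both tables. Genes shared with another cluster numbered 16 with an adjusted p under 0.05 in both rows and 33 without predicted genes, an alternative chosen after seeing the data. Terms under 0.01 numbered 0, and list members under 0.05 numbered 64. Without predicted genes, chosen likewise, 43 genes lay toward MMP-low. Leaving out single libraries was not possible, as no file used gives expression per library. No paired analysis was possible because no test was run and no file gives values per cell for the numbered libraries of the MMP groups. The files state no count of cells behind a percentage, so no counting interval is given.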

Other observations

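Predicted genes of repeated sequence ran through both cluster C and the MMP table. Gm10800 had the largest fold of any cluster C gene in the MMP table, with 1.88 toward MMP-low, and log fold changes of 0.75 in cluster C and 1.08 in cluster A, per the authors' deposited tables. Gm21738 and Gm26870 followed with 1.63 and 1.53 toward MMP-low by the authors' deposited table, and Gm10722 and Gm10801 with 1.46 and 1.28. In cluster C, only Gm10800 of these 5 genes had an adjusted p under 0.05 (0.0287 per the authors' deposited table). Detection was 95.5% to 100% on both sides for these 5 genes in cluster C against all other cells per the authors' deposited table. They lie on chromosomes 2, 9 and 14 and are known as near-identical copies of repeat sequence, so their counts are uncertain. Of the 40 genes shared by C and A, 18 were predicted genes, and of the 60 cluster C genes toward MMP-low, 17 were. With predicted genes left out, 33 of the 52 genes shared with another cluster and 43 of the 60 toward MMP-low remain.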
